A study of Mus musculus with 32 samples.

Results

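Expression of 10 genes by which T cells and natural killer (NK) cells kill, of 54446 genes counted, was followed in mouse liver tumours. They are a list given by name, with no threshold on a measured value. The list holds Gzma, Gzmb, Gzmk, Prf1, Nkg7, Ifng, Fasl, Ncr1, Klrd1 and Klrk1. Each was read in all 32 libraries, and each treatment was set against the vehicle of its own experiment.

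All 32 libraries came from tumours of the mouse liver cancer line BNL-MEA in Balb/c mice, whose left liver lobe had been injected with the cells. RNA was taken from the tumour as a whole, and the labels give neither age nor sex. In the dose experiment, 4 tumours had vehicle, 3 had a low regorafenib dose of 5 mg/kg/day and 3 a high one of 20 mg/kg/day. In the DC-101 experiment, 4 tumours had vehicle, 3 the low dose of 5 mg/kg/day and 3 an antibody against VEGFR2 (DC-101), of which 800 µg were injected into the peritoneum on days 1, 3 and 5. In the anti-PD1 experiment, 3 tumours each had vehicle, the low dose of 5 mg/kg/day, anti-PD1, or anti-PD1 together with that dose. The labels give no dose of anti-PD1. Regorafenib, taken by mouth, blocks VEGF receptors and other kinases. Anti-PD1 blocks an inhibitory receptor of T cells. The model is 1 cell line in 1 mouse strain, and the experiments are given as batches in the labels.

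Cytotoxic T cells and NK cells kill by releasing granules onto a target cell. Perforin (Prf1) lets the granule proteases, the granzymes, reach the cytosol, where granzyme B (Gzmb) starts the death programme. Granzyme A (Gzma) and granzyme K (Gzmk) are tryptases, and Nkg7 is a membrane protein of the granules. Fas ligand (Fasl) kills by a separate route through the receptor Fas, and interferon gamma (Ifng) is the main secreted cytokine of these cells. NKp46 (Ncr1) is an activating receptor that marks NK cells and related innate lymphocytes. CD94 (Klrd1) pairs with NKG2 proteins on NK cells and some CD8+ T cells, and NKG2D (Klrk1) is an activating receptor that binds stress ligands on tumour cells.

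In the Gencode annotation of GRCm38 the genes lie on 6 chromosomes and all are protein coding. The granule protein genes were Gzma (ENSMUSG00000023132.8) at chr13:113093825-113100981, Gzmk (ENSMUSG00000042385.14) at chr13:113171608-113225908, Gzmb (ENSMUSG00000015437.5) at chr14:56258838-56262260, Prf1 (ENSMUSG00000037202.6) at chr10:61297833-61304680 and Nkg7 (ENSMUSG00000004612.9) at chr7:43437073-43438249. The secreted and surface effectors were Ifng (ENSMUSG00000055170.4) at chr10:118441046-118445892 and Fasl (ENSMUSG00000000817.10) at chr1:161780689-161788495. The receptors were Ncr1 (ENSMUSG00000062524.4) at chr7:4337724-4345164, Klrd1 (ENSMUSG00000030165.16) at chr6:129591782-129598775 and Klrk1 (ENSMUSG00000030149.15) at chr6:129610323-129623864. Gzmk overlaps Esm1 on the opposite strand and Ifng overlaps the predicted transcript Gm49751 on its own strand, so these neighbours could affect the counts of both genes.

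The table of RefSeq start sites used here (GRCm38.p6) was matched for 9 of the 10 genes, and the 250 bases before each were searched on both strands. The letters TGNGGT, a wider pattern than the core bound by Runx factors, were present before 8 of the 9 genes. They were in 40.1% of all 32851 RefSeq windows of the same length. That core has T or C at the place of N, so TGGGGT and TGAGGT match the pattern but not the core. The letters TCACAC, a core bound by T-box factors such as Eomes and T-bet, were present before 4 of the 9 genes, and in 12.3% of all windows. Ets letters (GGAAG) were found before 6 of 9 genes (64.1% of all windows), CRE letters (TGACG) before 3 (17.8%), STAT letters (TTCNNNGAA) before 2 (7.02%) and AP-1 letters (TGANTCA) before 1 (6.75%). Matches of both patterns overlap each other at 1 place before Gzmk. A match is only a match of letters. The windows of the 3 genes that rose at the high dose and of Ncr1, whose change was the largest between the arms with anti-PD1, are shown 5′ to 3′ on the strand of the gene, with matches of TGNGGT and TCACAC on either strand in capitals. They are Prf1 (chr10:61297586-61297835, plus strand), Nkg7 (chr7:43436888-43437137, plus strand), Fasl (chr1:161788496-161788745, minus strand) and Ncr1 (chr7:4337465-4337714, plus strand).
Prf1: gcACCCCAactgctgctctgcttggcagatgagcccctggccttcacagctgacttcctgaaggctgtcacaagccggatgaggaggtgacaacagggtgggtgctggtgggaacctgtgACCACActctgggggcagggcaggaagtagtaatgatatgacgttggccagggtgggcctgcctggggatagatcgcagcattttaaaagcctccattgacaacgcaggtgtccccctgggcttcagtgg
Nkg7: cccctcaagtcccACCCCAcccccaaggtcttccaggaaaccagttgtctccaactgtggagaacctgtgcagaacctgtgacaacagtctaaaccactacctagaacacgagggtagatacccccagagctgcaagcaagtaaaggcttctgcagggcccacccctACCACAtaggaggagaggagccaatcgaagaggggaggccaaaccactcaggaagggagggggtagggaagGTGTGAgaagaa
Fasl: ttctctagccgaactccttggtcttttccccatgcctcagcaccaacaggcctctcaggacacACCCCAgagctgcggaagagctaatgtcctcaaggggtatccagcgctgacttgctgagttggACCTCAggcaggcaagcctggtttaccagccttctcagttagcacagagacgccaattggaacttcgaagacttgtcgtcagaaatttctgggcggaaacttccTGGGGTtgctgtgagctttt
Ncr1: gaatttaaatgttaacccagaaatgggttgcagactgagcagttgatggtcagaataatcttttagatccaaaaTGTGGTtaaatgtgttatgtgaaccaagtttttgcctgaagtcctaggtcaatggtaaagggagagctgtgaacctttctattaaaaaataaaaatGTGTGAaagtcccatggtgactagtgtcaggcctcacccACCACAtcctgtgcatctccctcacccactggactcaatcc
The Prf1 window held 2 TGNGGT matches and no TCACAC match. The Nkg7 and Ncr1 windows each held 2 TGNGGT matches and 1 TCACAC match, and the Fasl window held 3 TGNGGT matches. All 3 before Fasl read TGGGGT or TGAGGT on either strand, as did 1 of the 2 before Prf1 and before Nkg7.

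Library totals were 16.8 M to 27.7 M counts. The labels give the tissue as hepatocellular carcinoma, and the hepatocyte gene albumin (Alb) was between 11 and 27900 CPM (counts per 1 M of the library total after TMM scaling). The leukocyte antigen CD45 (Ptprc) was between 36.7 and 186 CPM, so leukocytes were present in every library. The T cell gene Cd3e was between 0.395 and 9.28 CPM, and Cd8a, the marker of killer T cells, between 0.439 and 16.9 CPM.

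All 10 genes were weakly expressed. The raw count per library was lowest, in the middle and highest at 8, 37.5 and 342 for Gzma, and at 10, 62 and 176 for Gzmb. It was 17, 63 and 414 for Klrk1, and 7, 56.5 and 322 for Nkg7. The counts of the NK receptor genes Ncr1 and Klrd1 and of Prf1 were lower, with medians of 23.5, 30.5 and 31.5. Fasl had a median of 12 counts and Gzmk of 8, and each had 3 counts or fewer in 5 libraries. Ifng had a median of 2 counts and 3 or fewer in 21 of 32 libraries, so it could be tested only in the anti-PD1 experiment. A library at 0 allows up to 3 counts, and such limits cover counting error only.

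Per length of exon, Nkg7 had the highest level, with a median over the 32 libraries of 3.14 CPM per kb. Gzmb (1.92 CPM per kb), Gzma (1.54) and Klrd1 (1.19) followed. Ncr1 (0.61 CPM per kb), Prf1 (0.562) and Klrk1 (0.48) were close to each other and to Cd3e (0.447 CPM per kb). Fasl (0.291 CPM per kb), Gzmk (0.283) and Ifng (0.0806) were lowest. Libraries of a group differed from each other by an SD of 0.71 (Gzmk) to 1.19 (Gzma) on the log2 CPM scale, against 0.39 for Ptprc. Neighbours in this order, such as Gzmb and Gzma or Ncr1 and Prf1, were closer than that spread, while the distance from Nkg7 to Fasl was larger.

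**Figure D1:**
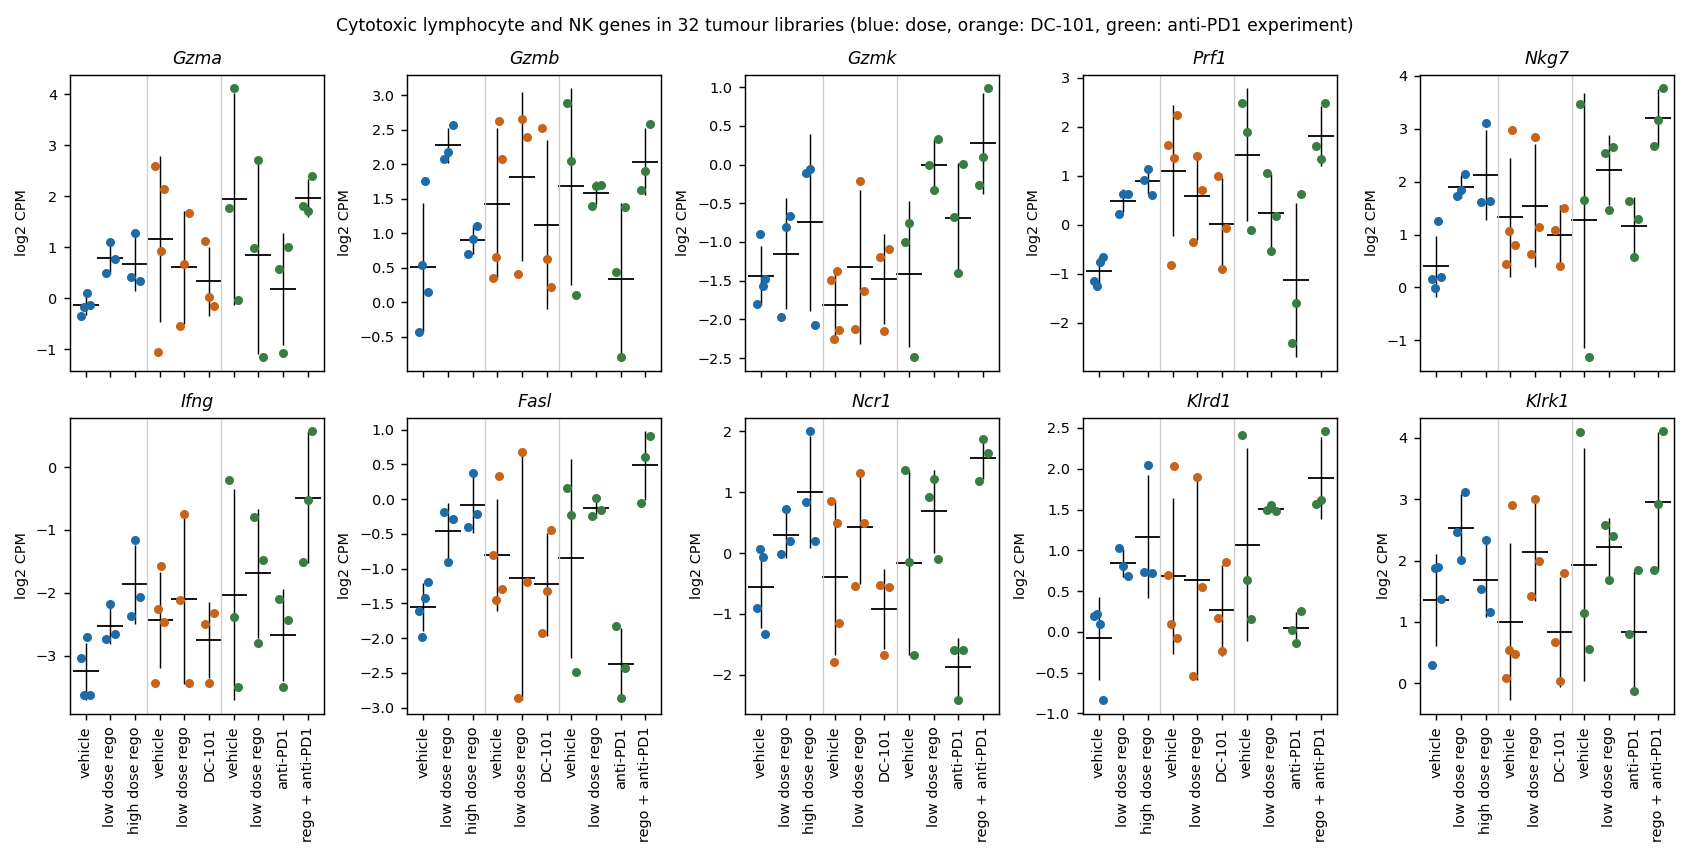
Log2 CPM of the 10 genes in each of the 32 libraries (points), with group mean and SD (bars), by group within the dose (blue), DC-101 (orange) and anti-PD1 (green) experiments. Vehicle libraries of the dose experiment lie close together and low for most genes, while those of the other experiments spread widely, as for Klrk1 from 1.38 to 17 CPM in the anti-PD1 experiment.

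The dose experiment asks how regorafenib alone, at a low and a high dose, relates to immune gene expression in the tumour. Prf1, Nkg7 and Fasl rose at the high dose of 20 mg/kg/day against vehicle. These were 3 of the 9 members that could be tested (adjusted p under 0.05, edgeR quasi-likelihood test with Benjamini-Hochberg adjustment over all genes), against 8.8% of 16525 genes that were called higher and 15.6% called in either direction. Prf1 was at 0.37, 0.343, 0.514 and 0.556 CPM with vehicle and at 1.81, 2.13 and 1.45 CPM at the high dose. Every high dose library was above every vehicle library for Prf1. Its log2 change was 1.99 ± 0.30 (SE), a 3.97-fold rise (edgeR adjusted p = 0.0182). In RNA of whole tumours, more cells of a type and more RNA per cell cannot be told apart. The labels do not say that each library came from a separate mouse, so p-values measure only the spread between these samples.

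Nkg7 was at 1.03, 0.914, 2.31 and 1.07 CPM with vehicle and at 3.0, 8.5 and 3.02 CPM at the high dose. The groups did not overlap, and high dose library 2 stood far above the other two. The log2 change of Nkg7 was 1.85 ± 0.47, a 3.62-fold rise (edgeR adjusted p = 0.0418). Fasl was at 0.247, 0.171, 0.294 and 0.357 CPM with vehicle, from 3 to 9 raw counts, and at 0.679, 1.21 and 0.784 CPM at the high dose. Again the groups did not overlap, and the Fasl log2 change was 1.71 ± 0.37, or 3.27-fold (edgeR adjusted p = 0.0341).

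Of the NK receptor genes, Ncr1 and Klrd1 stopped just short of the threshold, while Klrk1 was far from it (edgeR adjusted p = 0.669). Ncr1 was at 0.453, 0.971, 0.881 and 0.318 CPM with vehicle and at 1.7, 3.92 and 1.06 CPM at the high dose (log2 change 1.77 ± 0.54, edgeR adjusted p = 0.052). Klrd1 was at 1.07, 1.09, 0.991 and 0.476 CPM with vehicle and at 1.58, 4.03 and 1.57 CPM at the high dose (log2 change 1.41 ± 0.43, edgeR adjusted p = 0.0522). In both genes high dose library 2 was highest, and no high dose library fell into the vehicle range. Gzma had a log2 change of 0.93 ± 0.33 (edgeR adjusted p = 0.071). Over the 9 tested genes, 6 did not overlap between high dose and vehicle in the higher direction (Gzma, Prf1, Nkg7, Fasl, Ncr1 and Klrd1), against 11.8% of all genes.

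Gzmb and Klrk1 did not follow. Gzmb was at 0.658, 1.37, 3.3 and 1.03 CPM with vehicle and at 1.53, 1.8 and 2.08 CPM at the high dose, inside the vehicle range. Its log2 change was 0.18 ± 0.49 (edgeR adjusted p = 0.812), and that of Klrk1 was 0.29 ± 0.47 (edgeR adjusted p = 0.669). Gzmk, at 5, 8, 7 and 7 raw counts with vehicle and 15, 24 and 4 at the high dose, had a log2 change of 1.07 ± 0.62 (edgeR adjusted p = 0.222). Ifng was counted at 1, 0, 2 and 0 with vehicle and at 2, 10 and 4 at the high dose and was not tested.

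The calls at the high dose depended on the processing and on few libraries. DESeq2 called 6 of 9 members, where it called 32.2% of all genes it tested, and limma voom called 2 (Prf1 and Fasl, against 8.16%). Without the filter on low counts 1 member was called (Prf1, against 1.34%), and with the replicate number as a block 0 were, in a fit that called 1 gene in all (0.00605%). Without high dose library 2 only Prf1 was called (3.19% of all genes), and Nkg7 had a log2 change of 1.18 (edgeR adjusted p = 0.0931) and Fasl of 1.43 (edgeR adjusted p = 0.0764). In that fit Ncr1 had a log2 change of 1.08 (edgeR adjusted p = 0.164) and Klrd1 of 0.81 (edgeR adjusted p = 0.171). Without high dose library 3, 7 of 9 members were called higher (Gzma, Gzmk, Prf1, Nkg7, Fasl, Ncr1 and Klrd1), in a fit that called 41.1% of all genes in either direction and 23.4% in the higher one. Without vehicle library 2 Prf1 alone was called (0.506% of all genes), and without vehicle library 1, 3 or 4 none was, where 0.231%, 0.091% and 0.158% of all genes were called. Prf1 had log2 changes of 1.91, 2.06 and 2.11 in those 3 fits.

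T cell markers moved with these genes at the high dose, and markers of myeloid cells moved the other way. The summed level of the 10 T cell markers was 10 to 18.9 CPM with vehicle and 21.7 to 59.3 CPM at the high dose, and 5 of the 10 were called higher, among them Cd5 (log2 change 1.95), Cd3e (1.86) and Cd3g (1.69). The 5 pan-leukocyte markers summed to 639 to 888 CPM with vehicle and 198 to 511 CPM at the high dose, and 4 of 5 were called lower, led by Coro1a (log2 change -1.71), Laptm5 (-1.40) and Cd53 (-1.11). Of the 5 macrophage markers 4 were called lower, with Csf1r at a log2 change of -1.68, C1qa at -1.45 and Adgre1 at -1.21. Their sum was 2040 to 3210 CPM with vehicle and 678 to 1660 CPM at the high dose. Hepatocyte markers summed to 1410 to 8310 CPM with vehicle and 4020 to 103000 CPM at the high dose, with Cyp2e1 called higher (log2 change 5.41). B and plasma cell markers reached 484 CPM in 1 high dose library, against at most 3.89 CPM with vehicle, and Jchain (log2 change 7.73) and Cd79a (3.63) were called higher. The mean log2 CPM of the B and plasma cell markers was 1.5, 4.61 and -0.94 in high dose libraries 1, 2 and 3, and that of the T cell markers 1.60, 2.5 and 0.95. High dose library 2 was the highest in both. Nkg7 and Fasl were not called without that library, and neither were they without any single vehicle library. None of these marker genes was at 0 throughout a group. In a fit that also held the hepatocyte score, no member was called, against 1.5% of all genes, and Prf1 had a log2 change of 1.77 (edgeR adjusted p = 0.0522). The part of these other cells in the result was not tested beyond that.

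The members were also set against Cd3e in the same library. Log2 CPM of Prf1 minus that of Cd3e was -0.96 with vehicle, -0.71 at the low dose and -0.92 at the high dose (group means). For Nkg7 the difference from Cd3e was 0.39, 0.70 and 0.31 in the same order, with Fasl at -1.56, -1.65 and -1.89 and Ncr1 at -0.57, -0.90 and -0.80. Gzmb minus Cd3e was 0.49 with vehicle, 1.07 at the low dose and -0.91 at the high dose. Klrk1 minus Cd3e was 1.35, 1.33 and -0.13, Gzma minus Cd3e -0.16, -0.42 and -1.14, and Klrd1 minus Cd3e -0.09, -0.36 and -0.64. For Gzmb, Klrk1 and Gzma no high dose library reached the range of this difference in the low dose libraries. The share of all genes for which this holds was not computed. Cd3e itself had a mean log2 CPM of 0.01 with vehicle, 1.2 at the low dose and 1.81 at the high dose. With few counts, Gzmk was at -1.45, -2.35 and -2.56 and Ifng at -3.26, -3.72 and -3.68. These differences are descriptions and carry no test.

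Regorafenib at the low dose of 5 mg/kg/day gave positive log2 changes in all 9 tested members in the dose experiment, but none passed the threshold. No gene of the 16525 did (0% called, and 4.94% at an unadjusted p under 0.05 by the edgeR quasi-likelihood test). At an unadjusted p under 0.05 there were 6 of the 9 members, and DESeq2 called 1 (Prf1, against 0.518% of genes) and limma voom 0. Gzmb was at 0.658, 1.37, 3.3 and 1.03 CPM with vehicle and at 4.16, 4.43 and 5.81 CPM at the low dose. All low dose libraries were above the highest vehicle library, and the log2 change of Gzmb was 1.58 ± 0.49 (edgeR adjusted p = 0.831). Prf1 was at 1.08, 1.47 and 1.45 CPM at the low dose, again above all 4 vehicle libraries, with a log2 change of 1.56 ± 0.30 (edgeR adjusted p = 0.398).

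The other granule genes had smaller differences of the same sign. Nkg7, at 3.21, 3.49 and 4.32 CPM, had a log2 change of 1.45 ± 0.47, and Gzma, at 1.33, 2.06 and 1.61 CPM, one of 1.0 ± 0.33. Fasl was at 0.803, 0.454 and 0.745 CPM (log2 change 1.29 ± 0.38), and Klrk1 was at 5.45, 3.94 and 8.59 CPM (log2 change 1.14 ± 0.46). For these genes too every low dose library lay above every vehicle library. Of the 9 tested members, 7 did not overlap in the higher direction (the 6 named so far and Klrd1), against 6.92% of all genes. Klrd1 had a log2 change of 0.93 ± 0.43, Ncr1 of 0.85 ± 0.54 and Gzmk of 0.45 ± 0.63. The median over the 9 genes was 1.14, against 0 over all genes. T cell markers summed to 20.1 to 25.5 CPM at the low dose, also above the vehicle libraries, and macrophage markers to 4020 to 5530 CPM. Hepatocyte markers summed to 2750 to 31500 CPM at the low dose against 1410 to 8310 CPM with vehicle, and all 10 had a positive log2 change with a median of 1.53. In a fit that also held the hepatocyte score, the 9 members had log2 changes of 0.10 to 1.58 (lowest edgeR adjusted p = 0.189). The part of T cells and macrophages in the differences was not tested.

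High and low dose were compared directly in the same experiment. None of the 9 members was called, against 4.22% of all genes, and 1 member was under an unadjusted p of 0.05 (edgeR), against 29.3%. That member was Gzmb, which was at 1.53, 1.8 and 2.08 CPM at the high dose and at 4.16, 4.43 and 5.81 CPM at the low dose. The doses did not overlap for Gzmb, the only member for which this was so (16.2% of all genes did not overlap in the lower direction). Its log2 change from low to high dose was -1.41 ± 0.53 (edgeR adjusted p = 0.13). Prf1, Nkg7 and Fasl had log2 changes of 0.43, 0.40 and 0.42, Ncr1 of 0.92, Gzmk of 0.63, Klrd1 of 0.48, Gzma of -0.06 and Klrk1 of -0.85. DESeq2, which called 18.6% of genes, and limma voom called 0 members in this comparison.

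**Figure D2:**
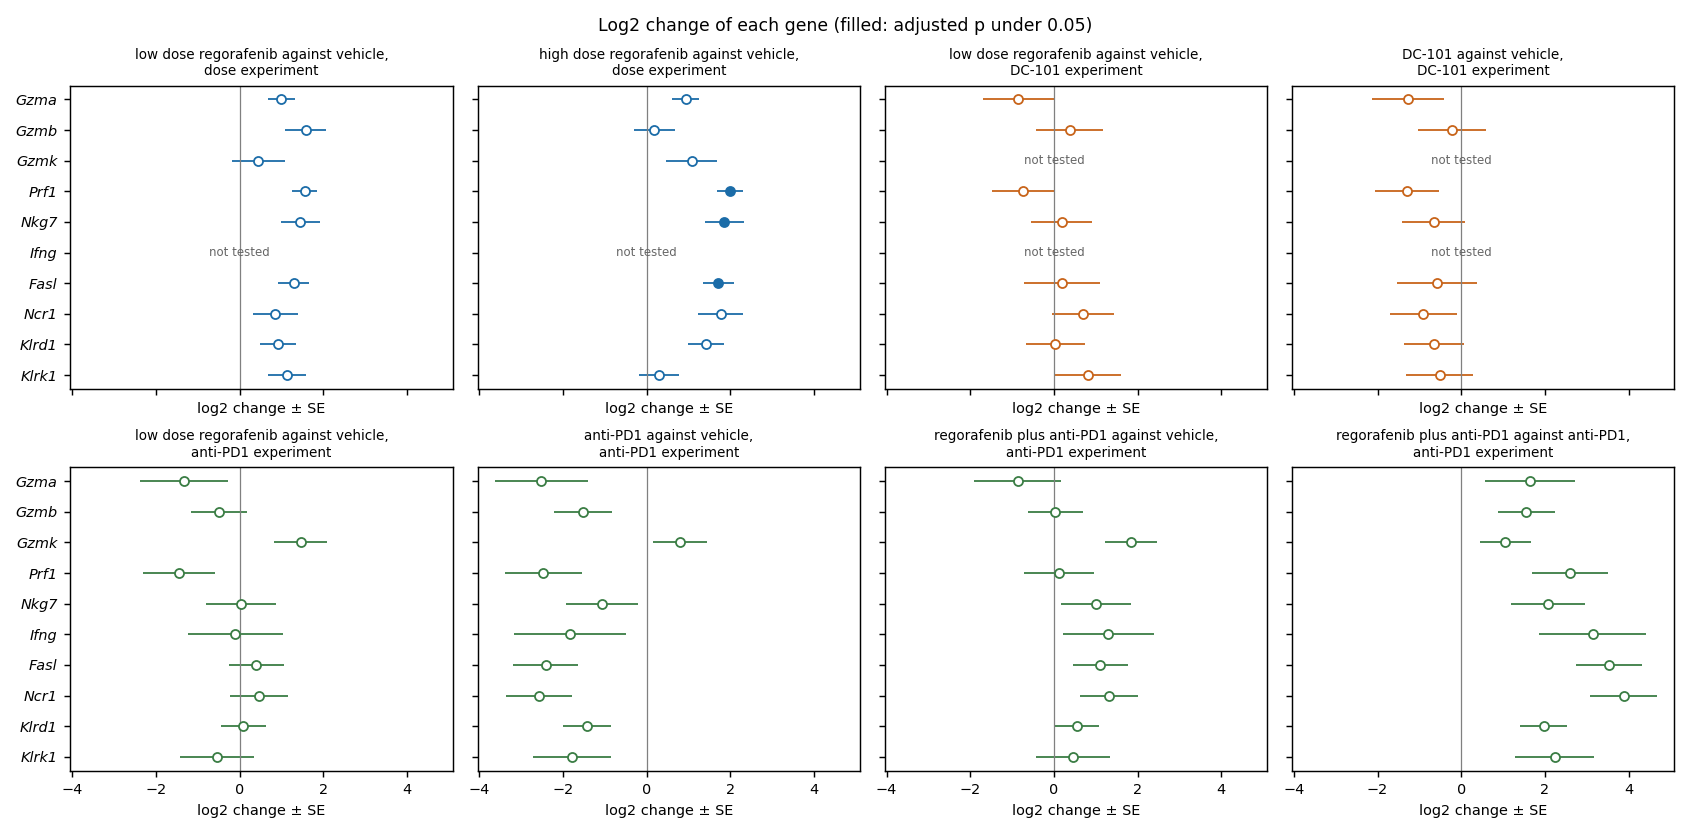
Log2 change ± SE of each gene in 8 comparisons, with filled points for an adjusted p under 0.05 and a note where a gene could not be tested. The 3 filled points are Prf1 (1.99), Nkg7 (1.85) and Fasl (1.71) at the high dose, and the highest values are those of Ncr1 (3.88) and Fasl (3.53) for the combination against anti-PD1.

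In the DC-101 experiment, which sets regorafenib beside an antibody against VEGFR2 alone, the members spread widely within each group. The vehicle libraries had Prf1 at 2.98, 0.47, 2.48 and 4.63 CPM, low dose regorafenib at 0.686, 2.55 and 1.54 CPM, and DC-101 at 1.9, 0.442 and 0.86 CPM. All 3 groups overlapped for Prf1. Gzmb was at 1.18, 1.49, 6.08 and 4.14 CPM with vehicle, at 1.23, 6.19 and 5.14 CPM with low dose regorafenib and at 5.66, 1.46 and 1.08 CPM with DC-101. Ncr1 was at 1.71, 0.196, 1.31 and 0.36 CPM with vehicle, at 0.594, 2.41 and 1.31 CPM with regorafenib and at 0.605, 0.221 and 0.591 CPM with DC-101. The vehicle and regorafenib groups held both high and low libraries of these genes, and the DC-101 libraries lay below the vehicle mean in Ncr1. None of the 8 members tested was free of overlap in any of the comparisons, where 6.93% (regorafenib higher than vehicle), 8.19% (DC-101 lower than vehicle) and 5.48% (regorafenib higher than DC-101) of all genes were.

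No member was called in this experiment. Low dose regorafenib against vehicle called 0.0248% of 16138 genes and had 17.1% at an unadjusted p under 0.05, but 0 of the 8 members (edgeR, all with an adjusted p of 0.608 or more). The log2 changes ran from -0.85 for Gzma to 0.81 for Klrk1, with 6 of 8 positive and a median of 0.18. Prf1 was at -0.73, Klrd1 at 0.03, Nkg7 at 0.18, Fasl at 0.19, Gzmb at 0.38 and Ncr1 at 0.69. DC-101 against vehicle called 0% of genes (13.2% at an unadjusted p under 0.05), and the 8 members had negative log2 changes, from -1.30 for Prf1 to -0.23 for Gzmb, with a median of -0.65. Gzma was at -1.28, Ncr1 at -0.91, Nkg7 at -0.66, Klrd1 at -0.65, Fasl at -0.58 and Klrk1 at -0.51. Low dose regorafenib against DC-101 called 0% of genes (8.45% at an unadjusted p under 0.05), and the 8 log2 changes were positive, from 0.43 to 1.60, with a median of 0.72. The largest was that of Ncr1, 1.60 ± 0.84 (edgeR adjusted p = 0.667), followed by Klrk1 (1.31), Nkg7 (0.84), Fasl (0.77), Klrd1 (0.68), Gzmb (0.61), Prf1 (0.57) and Gzma (0.43). Gzmk, at 3 to 17 counts, and Ifng, at 0 to 11, were not tested in this experiment. In these 3 comparisons 0 members had an unadjusted p under 0.05, and limma voom called 0. DESeq2 called 0 of 8 members for regorafenib against vehicle (7.09% of genes) and 0 of the 5 it tested for DC-101 against vehicle (2.8%) and for regorafenib against DC-101 (1.41%). The last 2 comparisons share the DC-101 libraries, and leaving out 1 library turned the sign of 5 members in the former and of 4 in the latter.

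Hepatocyte markers differed widely in this experiment, summing to 21.2 to 5700 CPM with vehicle, 1880 to 22800 CPM with regorafenib and 76.4 to 31300 CPM with DC-101. Their median log2 change was 3.10 for regorafenib and 3.46 for DC-101 against vehicle, with all 10 positive in both, and -0.28 for regorafenib against DC-101. That of the T cell markers was 0.63, -0.45 and 1.05 in the same order. In a fit that also held the hepatocyte score, 5 members turned sign for regorafenib against vehicle, among them Prf1 (0.12) and Gzma (0.34). The part of T cells in these differences was not tested.

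Libraries with high T cell marker levels were high in several members in this experiment. Vehicle library 3 and regorafenib library 2 had Cd3e at 3.84 and 5.82 CPM, Nkg7 at 7.73 and 7.14 CPM and Klrk1 at 7.39 and 7.96 CPM. They were the highest libraries of their groups for each of these 3 genes. Fasl was also highest there, at 24 and 33 raw counts, where the other regorafenib libraries had 1 and 6. Gzma had another order, with its highest level of 5.96 CPM in vehicle library 1, where Cd3e was at 0.395 CPM.

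Over all 3 experiments together, low dose regorafenib called none of the 8 members tested, against 1.77% of 15562 genes. None was at an unadjusted p under 0.05 either, where 16% of all genes were (edgeR, with the experiment as a term), and DESeq2 (5.76% of genes) and limma voom called 0 each. The log2 changes were 0.68 ± 0.41 for Ncr1, 0.63 for Fasl, 0.58 for Nkg7, 0.55 for Gzmb, 0.54 for Klrk1, 0.36 for Klrd1, -0.19 ± 0.50 for Prf1 and -0.36 ± 0.60 for Gzma. A test of the difference in low dose change among the 3 experiments called 0% of genes (edgeR, 9.52% at an unadjusted p under 0.05). Its smallest member p was that of Prf1 (edgeR adjusted p = 0.457), whose log2 change was 1.56 beside the high dose, -0.73 beside DC-101 and -1.45 beside anti-PD1. For the other 7 members the unadjusted p of this test was 0.14 to 0.931.

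The anti-PD1 experiment asks what regorafenib adds to anti-PD1, and there the combination held higher levels than anti-PD1 alone in all 10 members, though no gene passed the threshold. Of 16615 genes 0% were called and 8.68% had an unadjusted p under 0.05, while 8 of the 10 members did so by the edgeR quasi-likelihood test and DESeq2 called 2, Fasl and Ncr1, against 1.16% of genes. limma voom called 0 members in every comparison of this experiment. Ncr1 was at 0.243, 0.0969 and 0.241 CPM with anti-PD1, from 5, 2 and 5 raw counts, and at 2.18, 3.56 and 3.04 CPM with the combination, from 50, 94 and 72. No combination library came near the anti-PD1 libraries for Ncr1. Its log2 change was 3.88 ± 0.80, or 14.7-fold (edgeR adjusted p = 0.472), and its p ranked 11 among all genes. Fasl was counted 4, 1 and 2 times with anti-PD1 and 20, 38 and 42 times with the combination (log2 change 3.53 ± 0.78, 11.5-fold, edgeR adjusted p = 0.472). The groups were again apart for Fasl, at counts that leave the size of the ratio uncertain.

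Prf1 was at 0.0971, 0.242 and 1.45 CPM with anti-PD1 and at 2.96, 2.42 and 5.53 CPM with the combination. The lowest combination library was above the highest anti-PD1 library, and anti-PD1 library 3 stood above the other two. The log2 change of Prf1 was 2.60 ± 0.92 (edgeR adjusted p = 0.476). Klrd1 was at 0.922, 0.824 and 1.11 CPM against 2.87, 2.99 and 5.4 CPM (log2 change 1.97 ± 0.57, edgeR adjusted p = 0.472). Nkg7 was at 3.01, 1.41 and 2.36 CPM against 6.26, 8.94 and 13.6 CPM (log2 change 2.08 ± 0.88). Both genes were without overlap, and combination library 3 was highest in each.

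Klrk1 was at 1.65, 0.824 and 3.52 CPM with anti-PD1 and at 3.52, 7.46 and 17.2 CPM with the combination, where the closest libraries nearly met. Its log2 change was 2.23 ± 0.94, that of Gzmb 1.56 ± 0.69 and that of Gzma 1.65 ± 1.08. Ifng was counted 3, 0 and 2 times with anti-PD1 and 6, 16 and 33 times with the combination (log2 change 3.14 ± 1.28, edgeR adjusted p = 0.529), and with so few counts no fold is given. Gzmk, the one member with overlapping groups, was at 11, 6 and 19 counts against 17, 26 and 45 (log2 change 1.05 ± 0.61). In all, 9 of 10 members did not overlap in the higher direction, against 16% of all genes. The median log2 change of the 10 was 2.16, and leaving out any 1 library left every change positive, between 0.57 and 4.38.

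Markers of other cell types are given for the same contrast, in which none of them was called. T cell markers summed to 9.84 to 19.4 CPM with anti-PD1 and 34.4 to 85.6 CPM with the combination, and all 10 had a positive log2 change with a median of 1.87. Hepatocyte markers summed to 900 to 2750 CPM and 4080 to 18800 CPM, and all 10 were positive with a median of 2.30. B and plasma cell markers summed to 3.09 to 4.66 CPM and 12.1 to 51.4 CPM. Pan-leukocyte markers, at 1080 to 1330 CPM and 856 to 1440 CPM, had a median log2 change of -0.08, and macrophage markers one of -0.07. In a fit that also held the hepatocyte score, the 10 changes were 1.66 to 4.22 and the lowest edgeR adjusted p was 0.92. Against Cd3e in the same library, Ncr1 was at -2.43 ± 0.09 (SD, n = 3) with anti-PD1 and at -0.97 ± 0.54 (n = 3) with the combination on the log2 scale. Ncr1 had only 2 to 5 counts with anti-PD1, so that small SD is no measure of closeness. In the same order Prf1 was at -1.69 and -0.73, Fasl at -2.93 and -2.05, Ifng at -3.23 and -3.03, Klrk1 at 0.28 and 0.42, and Nkg7 at 0.61 and 0.67. Lower with the combination were Gzmk (-1.25 and -2.26), Gzmb (-0.22 and -0.5), Gzma (-0.39 and -0.57) and Klrd1 (-0.51 and -0.66). The part of T and B cells in these differences was not tested.

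Anti-PD1 alone stood below vehicle for most members, without passing the threshold. No gene was called (0% of 16615, 13.7% at an unadjusted p under 0.05), and 6 of 10 members had an unadjusted p under 0.05 by edgeR, with 1 (Ncr1) called by DESeq2, against 3.71% of genes. Ncr1 was at 2.47, 0.812 and 0.223 CPM with vehicle and at 0.243, 0.0969 and 0.241 CPM with anti-PD1 (log2 change -2.57 ± 0.79, edgeR adjusted p = 0.251). Fasl was counted 25, 15 and 2 times with vehicle and 4, 1 and 2 times with anti-PD1 (log2 change -2.42 ± 0.78). Vehicle library 3 reached down to the anti-PD1 libraries in both genes. Prf1 had a log2 change of -2.48 ± 0.92, Gzma of -2.52 ± 1.11, Gzmb of -1.53 ± 0.69 and Klrd1 of -1.43 ± 0.57. Without 1 library these ranged from -4.25 to -1.92 for Prf1, from -3.05 to -0.75 for Gzma (-0.75 without vehicle library 2), from -2.22 to -0.85 for Gzmb and from -1.81 to -0.41 for Klrd1 (-0.41 without vehicle library 1). Ncr1 ranged from -3.05 to -1.40 and Fasl from -3.02 to -1.87. Klrk1 (-1.78), Ifng (-1.83) and Nkg7 (-1.08) were negative as well, and Gzmk was at 0.79. No member was free of overlap, where 9.2% of all genes were in the lower direction.

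The 3 vehicle libraries lay far from each other. Vehicle library 1 was highest in Klrk1 at 17 CPM, in Nkg7 at 11 CPM, in Gzmb at 7.25 CPM and in Prf1 at 5.52 CPM. Vehicle library 3 was at 1.38, 0.312, 0.98 and 0.846 CPM for the same genes, and vehicle library 2 had the highest Gzma of all 32 libraries at 17.3 CPM. Hepatocyte markers summed to 9030 to 12900 CPM with vehicle, above the anti-PD1 libraries, and their median log2 change was -2.26. That of the T cell markers was -0.64. In a fit that also held the hepatocyte score, the 10 members had log2 changes of -3.29 to -0.15 (lowest edgeR adjusted p = 0.772) with a median of -2.50. The part of T cells and of these other cells in the differences was not tested.

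Low dose regorafenib alone in this experiment called 0% of genes (11.8% at an unadjusted p under 0.05), and 1 of 10 members had an unadjusted p under 0.05 (edgeR). That was Gzmk, at 10, 10 and 2 counts with vehicle and 24, 13 and 26 with regorafenib (log2 change 1.46 ± 0.63, edgeR adjusted p = 0.396). It was the only member whose groups did not overlap, against 6.68% of all genes. The other log2 changes lay between -1.45 ± 0.87 for Prf1 and 0.47 for Ncr1, with Gzma at -1.32, Klrk1 at -0.54, Gzmb at -0.49, Ifng at -0.10, Nkg7 at 0.03, Klrd1 at 0.09 and Fasl at 0.40. Hepatocyte markers had a median log2 change of -1.76 and T cell markers of 0.58. B and plasma cell markers summed to 13.4 to 45.3 CPM against 4.46 to 6.72 CPM with vehicle (median log2 change 1.79, 5 of 5 positive), mast cell markers had a median of 3.12 (4 of 5 positive) and endothelial markers one of -0.92 (0 of 5 positive), with none called. With the hepatocyte score in the fit, Gzmk was at 0.75 (edgeR adjusted p = 0.817) and the 10 members at -1.53 to 0.75. The part of the other cells was not tested.

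The combination against vehicle called 0% of genes too (8.2% at an unadjusted p under 0.05), with 0 of the 9 members that DESeq2 tested called in either comparison (2.73% of genes for the low dose and 0.961% for the combination) and Gzmk again the 1 member under an unadjusted p of 0.05 and without overlap (log2 change 1.84 ± 0.63, edgeR adjusted p = 0.498, against 9.58% of all genes without overlap). Its Gzmk counts were 17, 26 and 45. These counts are small, and whether the overlapping Esm1 affected them cannot be told since the strand used in counting is not stated. The other 9 members had log2 changes from -0.87 for Gzma to 1.31 for Ncr1, with Gzmb at 0.03, Prf1 at 0.12, Klrk1 at 0.45, Klrd1 at 0.54, Nkg7 at 1.0, Fasl at 1.11 and Ifng at 1.30. The median of the 10 was 0.77. All 10 T cell markers were positive with a median of 1.29, none called, and hepatocyte markers had a median of 0.09. B and plasma cell markers summed to 12.1 to 51.4 CPM with the combination and 4.46 to 6.72 CPM with vehicle, and endothelial markers to 85.7 to 124 CPM and 130 to 184 CPM. The mean log2 CPM of the mast cell markers was 0.05 and -1.34 in the same order. With the hepatocyte score in the fit the 10 changes were -0.87 to 1.70. The part of T cells and of these other cells was not tested.

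The regorafenib change with anti-PD1 was then set against that without it, a comparison added after the data had been seen. No gene was called (0%, 10.8% at an unadjusted p under 0.05, edgeR), and 4 of 10 members were under that unadjusted p (Prf1, Ncr1, Fasl and Klrd1). DESeq2 called 2 members, Prf1 and Ncr1, against 3.17% of genes. The difference of log2 changes was 4.05 ± 1.26 for Prf1 (edgeR adjusted p = 0.263), 3.41 ± 1.04 for Ncr1 (edgeR adjusted p = 0.256), 3.13 ± 1.01 for Fasl and 1.88 ± 0.78 for Klrd1. For Ifng (3.24), Gzma (2.97), Klrk1 (2.76), Nkg7 (2.06) and Gzmb (2.04) it was positive, and for Gzmk it was -0.41. Without 1 library the difference ranged from 3.51 to 5.83 for Prf1, from 2.24 to 3.90 for Ncr1 and from 0.86 to 2.26 for Klrd1, the lowest of each without vehicle library 1, and from 1.19 (without vehicle library 2) to 4.31 for Gzma. It ranged from 2.58 to 3.73 for Fasl, 0.77 to 3.97 for Ifng, 0.83 to 3.45 for Klrk1, 0.58 to 2.61 for Nkg7 and 1.37 to 2.74 for Gzmb. The median of the hepatocyte markers was 3.97 for this difference, from -1.76 without and 2.30 with anti-PD1, and that of the T cell markers was 1.20. With the hepatocyte score in the fit the 10 differences were 1.10 to 5.33 and the lowest edgeR adjusted p was 0.869. The part of T cells was not tested.

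Genes of the same pathway outside the 10 members were read from lists of related genes. The counts at the high dose stand against 8.8% of all genes called higher and 15.6% called in either direction. At the high dose against vehicle, the machinery that makes and releases granules had 2 of 10 genes called higher and 2 lower. Ctsc, which encodes the protease that activates granzymes, fell (log2 change -2.19, edgeR adjusted p = 0.0109), as did the granule proteoglycan Srgn (-1.05), while the lymphocyte protease Ctsw rose (1.26). Both Ctsc and Srgn are also made by myeloid cells, and the part of those cells in these calls was not tested. Of 8 transcription factors of cytotoxic cells, Eomes (log2 change 2.28, edgeR adjusted p = 0.0315) and Stat4 (1.88) rose and Runx3 fell (-2.09). Of 10 other NK receptors and adaptors tested, 3 rose, among them Klre1 (log2 change 2.68) and Cd226 (1.84), and the signalling adaptor Tyrobp, which myeloid cells share, fell (-1.42).

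The ligands of NKG2D Raet1e (log2 change 3.95, edgeR adjusted p = 0.0497) and Raet1d (3.70, adjusted p = 0.0472) rose at the high dose, 2 of the 6 genes tested in a list that holds ligands of the receptors and Fas, the death receptor. Raet1e was at 17 to 49 counts with vehicle and at 864, 205 and 12 at the high dose, and Raet1d at 23 to 64 counts against 998, 266 and 24. In high dose library 3 the count of Raet1e lay below the vehicle counts and that of Raet1d within them, and the hepatocyte score (mean log2 CPM of the markers) of the 3 high dose libraries was 13.03, 10.76 and 7.89. The part of hepatocytes in these calls was not tested. On the interferon gamma axis Gbp2 rose (log2 change 1.01) and the receptor chains Ifngr1 (-0.53) and Ifngr2 (-0.51) fell, 3 of 10 genes. Of 7 activating cytokines tested, the chemokine Ccl5, which T and NK cells secrete, rose (log2 change 1.46, edgeR adjusted p = 0.0449). Of the other granzymes 2 could be tested and neither was called, with Gzmc at a log2 change of 2.02 (edgeR adjusted p = 0.0651). No mast cell marker was called of 4 tested, and of 5 endothelial markers Emcn fell (log2 change -1.86).

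Between the doses, the calls in these lists were all lower at the high dose. They were Ctsc (log2 change -2.46, edgeR adjusted p = 0.00492), Runx3 (-2.02), Tyrobp (-1.97), Ifngr2 (-0.90) and Ifngr1 (-0.80), beside 3 pan-leukocyte and 4 macrophage markers, where 4.22% of all genes were called. Over the 3 experiments, low dose regorafenib called higher Itga2, the integrin known as DX5 on NK cells (log2 change 0.91, edgeR adjusted p = 0.0419). Ifngr2 (0.42) and Jchain (2.19) were called higher too, where 1.77% of all genes were called in either direction. Which cells made Itga2 was not tested, and no member was called in that fit. The endothelial genes Emcn (-1.39), Cdh5 (-1.25) and Pecam1 (-1.17) and the mast cell gene Kit (-1.09) were called lower. No gene of any list was called at the low dose in the dose experiment or in any comparison of the DC-101 and anti-PD1 experiments.

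In those comparisons the gene of each list with the smallest p is given for the 3 lists nearest to the members. Among the transcription factors this was Eomes for the combination against anti-PD1 (log2 change 3.51, edgeR adjusted p = 0.472), with Eomes at 5, 0 and 3 counts against 34, 34 and 43. No anti-PD1 library reached the combination libraries. It was Eomes also for DC-101 against vehicle (log2 change -1.89) and for the low dose in the dose experiment (2.04), Zeb2 for anti-PD1 against vehicle (-1.0), Nfil3 for the combination (-1.28) and for the low dose (-1.42) against vehicle in the anti-PD1 experiment, and Stat4 (2.12) and Runx3 (-0.54) for the low dose against DC-101 and against vehicle in the DC-101 experiment. At the low dose in the dose experiment Eomes was at 3, 6, 13 and 6 counts with vehicle and at 26, 46 and 30 with the drug.

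Among the NK receptors it was Klre1 for the low dose in the dose experiment (log2 change 1.91), for the combination against anti-PD1 (2.65) and for the combination against vehicle (1.17). It was Klrb1c for anti-PD1 (log2 change -2.23) and for DC-101 (-1.21) against vehicle, Itga2 for the low dose against vehicle (1.70, edgeR adjusted p = 0.0865) and against DC-101 (1.27) in the DC-101 experiment, and Cd244 for the low dose in the anti-PD1 experiment (-1.09). Among the other granzymes Gzmc had a log2 change of 3.20 at the low dose in the dose experiment (edgeR adjusted p = 0.525). It was at 15, 4, 24 and 9 counts with vehicle and at 97, 123 and 178 with the drug, so the groups did not overlap. In the DC-101 experiment the gene was Gzme for the low dose against vehicle and against DC-101, at 92, 2, 4 and 127 counts with vehicle, 1, 4 and 0 with the drug and 54, 4 and 0 with DC-101, and Gzmc for DC-101 against vehicle (log2 change -1.27). In the anti-PD1 experiment it was Gzmf against vehicle in all 3 comparisons, at 66, 572 and 7 counts with vehicle, 1, 4 and 3 with the low dose, 0, 0 and 46 with anti-PD1 and 57, 8 and 0 with the combination, and Gzmc for the combination against anti-PD1 (1.97). With most counts near 0 and the rest in 1 or 2 libraries of a group, no log2 change is given for Gzme and Gzmf.

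**Figure D3:**
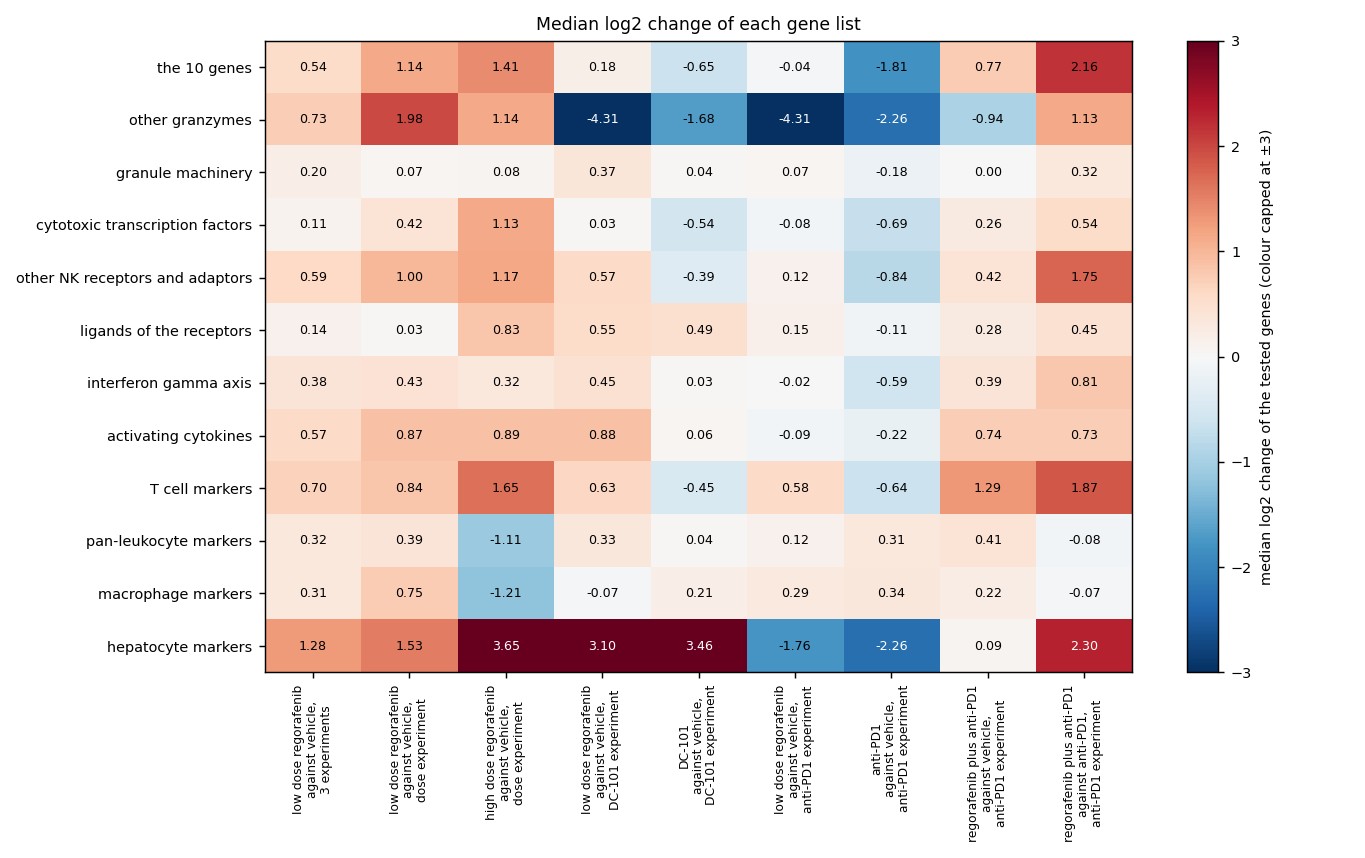
Median log2 change of each gene list (rows) in 9 comparisons (columns), with the colour scale in log2 units. The members tested have medians of 1.14 (low dose) and 1.41 (high dose) in the dose experiment and 2.16 for the combination against anti-PD1, beside -1.21 for macrophage markers and 3.65 for hepatocyte markers at the high dose, and the row of other granzymes rests on 2 tested genes in the dose experiment and the fit over all experiments, and on genes with few counts in the others.

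Across the 32 libraries, each centred on the vehicle mean of its own experiment, the members tested in all experiments varied together to different degrees. Pearson's r on log2 CPM was highest between Fasl and Klrd1 (0.89) and lowest between Gzma and Klrk1 (0.26). With the mean of the T cell markers r was 0.92 for Nkg7, 0.82 for Klrd1, 0.79 for Klrk1, 0.76 for Fasl, 0.70 for Ncr1, 0.55 for Gzmb, 0.45 for Prf1 and 0.12 for Gzma. The mean of the 8 members had an r of 0.75 with T cell markers, 0.53 with B and plasma cell markers, 0.15 with hepatocyte markers, -0.08 with pan-leukocyte markers and -0.06 with macrophage markers. All points share the treatments and the library scaling, so these values describe the libraries and carry no test.

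**Figure D4:**
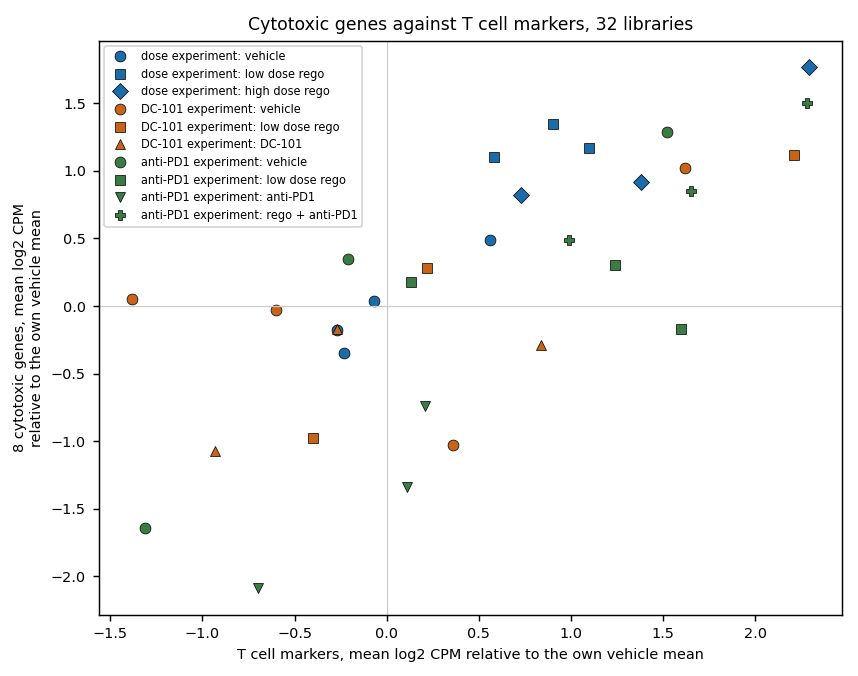
Mean log2 CPM of the 8 members tested in all experiments against the mean of 10 T cell markers, both centred on the vehicle mean of the own experiment, with 1 point per library (32 libraries). Points run from lower left to upper right (r = 0.75), and the 3 combination libraries lie above the 3 anti-PD1 libraries on both axes.

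Of 15421 genes tested in all experiments, those most like the mean of the 8 members over the 32 libraries were Eomes (r = 0.89), Klrc1 (0.89), Camk4 (0.88), Klre1 (0.87) and Klri2 (0.86). Eomes encodes a T-box factor of NK and CD8+ T cells, and Klrc1, Klre1 and Klri2 encode lectin-like receptors of NK cells.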

How the data were processed

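Gene expression was measured by stranded mRNA sequencing in 32 tumours. The deposited tables hold raw counts, made by the authors with cutadapt 2.4 and STAR 2.7.2a on GRCm38 with Gencode M19. Which strand column was counted is not stated. Identifiers were matched without their version to Gencode M21, for 54409 of 54446 genes. Library totals were 16.8 M to 27.7 M.

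The counts of each experiment were fitted with all its groups in edgeR 4.0.16 (R 4.3.3), after filterByExpr (minimum count 10, minimum total 15) and TMM scaling, by the robust quasi-likelihood F-test (2-sided) with Benjamini-Hochberg adjustment over all genes tested. The threshold was an adjusted p of 0.05. The fit over 3 experiments had the experiment as a term. Log2 CPM used a prior count of 2, and fitted log2 changes one of 0.125, so that changes of genes with few counts depend on it. Alternatives used DESeq2 1.42.0, limma 3.58.1 (voom), other scaling factors, no filter, a hepatocyte score as covariate, the replicate number as a block, and fits without single libraries or experiments. The code was tested on simulated data.

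Libraries of a group differed beyond sampling noise (chi-square per degree of freedom of at least 14 in each of 36 pairs) and all were kept as separate samples. Groups and replicate numbers came from the labels. The members and the lists were chosen with earlier results of these data known. The rule for named genes took all members in every comparison (some are given as a range), up to 3 called genes of each list, or the gene of a list with the smallest p where none was called, the 5 genes most alike, and Cd3e, Cd8a, Ptprc and Alb. The lists were other granzymes, granule machinery, transcription factors, NK receptors, ligands, the interferon gamma axis, activating cytokines, and markers of T cells, leukocytes, hepatocytes, mast cells, B and plasma cells, macrophages and endothelium.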

Additional observations from a re-analysis of the deposited data

Results flagged for a closer look

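In groups of 4 libraries, the gap of the most extreme library to its neighbour was divided by the range of the group on the log2 CPM scale, and 3 of 20 such groups passed Dixon's 95% limit. Chance alone passes it in about 1 of 20 groups. Vehicle library 3 of the dose experiment stood high in Nkg7 (0.832), at 2.31 CPM against 0.914 to 1.07 CPM in the other vehicle libraries. Vehicle library 4 of the same experiment stood low in Klrd1 (0.886), at 0.476 CPM against 0.991 to 1.09 CPM. Vehicle library 3 of the DC-101 experiment stood high in Klrk1 (0.833), at 7.39 CPM against 0.965 to 1.37 CPM, and had the highest Cd3e of its group at 3.84 CPM. No cause was tested for these 3 libraries.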

How the results depend on the processing

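The counts of members called at the high dose against vehicle depended most on the processing. The 3 called with edgeR were 6 with DESeq2, 1 without the filter on low counts, 0 with the hepatocyte score as a covariate (1.5% of all genes called) and 0 with the replicate number as a block (0.00605%), and between 0 and 7 without 1 library. All genes called in that comparison, 2582 in the reported fit, were between 1 and 5275 over the alternatives and between 15 and 7030 without 1 library. Between the doses 697 became 1 to 3059 over the alternatives and 62 to 4488 without 1 library. Over the 3 experiments 276 became 17 to 892 and 158 to 313 in the same order. DESeq2 called 1 member for the low dose in the dose experiment, 1 for anti-PD1 against vehicle, 2 for the combination against anti-PD1 and 2 for the difference of regorafenib changes with and without anti-PD1, where edgeR called 0. The causes were not tested.

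The sign of a member's log2 change turned in 30 of the 678 alternative values that left no single library out. With the hepatocyte covariate these were, for the dose experiment, Klrk1 at the high dose against vehicle (-0.25) and Gzmk between the doses (-0.04). For low dose regorafenib against vehicle in the DC-101 experiment they were Gzma (0.34), Prf1 (0.12), Nkg7 (-0.09), Fasl (-0.18) and Klrd1 (-0.25), and in the anti-PD1 experiment Nkg7 (-0.65), Fasl (-0.12) and Klrd1 (-0.05). The rest with this covariate were Gzmk for anti-PD1 against vehicle (-0.15), Gzmb for the combination against vehicle (-0.05) and Gzmk with against without anti-PD1 (1.10). With limma voom, low dose regorafenib in the DC-101 experiment gave -0.52 for Fasl and -0.02 for Klrd1 against vehicle and -0.02 for Fasl against DC-101, low dose regorafenib in the anti-PD1 experiment gave 0.84 for Ifng and 0.29 for Klrk1, and the combination against vehicle gave 0.07 for Gzma. Over the 3 experiments, Gzmb was -0.03 without the dose experiment, Prf1 was 0.14 without the DC-101 experiment, and Gzma was 0.08 and Prf1 0.40 without the anti-PD1 experiment.

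Same-numbered libraries deviated together (r over 0.1) in 2 of 9, 4 of 9 and 6 of 18 pairs of the dose, the DC-101 and then the anti-PD1 experiment. These counts do not show that the numbers pair the samples and cannot exclude it. With the replicate block, Prf1 at the high dose had a log2 change of 2.11 (edgeR adjusted p = 0.192). Under this block the sign turned for low dose regorafenib in the DC-101 experiment in Prf1 (0.05), Fasl (-0.33) and Klrd1 (-0.18), for DC-101 in Gzmb (0.20), for the combination against vehicle in Gzmb (-0.01) and Prf1 (-0.05), and over the 3 experiments in Prf1 (0.06).

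Leaving out 1 library turned a sign in 54 of 860 values. The ranges were, for DC-101 against vehicle, -1.18 to 0.05 for Fasl, -1.31 to 0.27 for Gzmb, -1.02 to 0.05 for Klrd1, -1.15 to 0.67 for Klrk1 and -0.93 to 0.28 for Nkg7. For low dose regorafenib against DC-101 they were -0.97 to 1.36 for Fasl, -0.28 to 0.96 for Gzma, -0.26 to 1.07 for Klrd1 and -0.17 to 1.17 for Nkg7. For low dose regorafenib against vehicle in the DC-101 experiment they were -1.52 to 0.82 for Fasl, -0.88 to 0.73 for Klrd1 and -0.80 to 1.12 for Nkg7. In the anti-PD1 experiment they were -0.12 to 0.94 for Fasl, -2.66 to 0.46 for Gzma, -0.95 to 0.18 for Gzmb, -0.83 to 2.36 for Ifng, -0.29 to 1.11 for Klrd1, -1.02 to 1.39 for Klrk1, -0.02 to 1.63 for Ncr1 and -0.53 to 1.5 for Nkg7. For anti-PD1 against vehicle they were -2.51 to 0.66 for Ifng, -2.47 to 0.17 for Klrk1 and -1.64 to 0.41 for Nkg7. For the combination against vehicle they were -1.40 to 0.90 for Gzma, -0.43 to 0.70 for Gzmb, -0.32 to 2.39 for Klrk1 and -0.33 to 0.67 for Prf1. Between the doses they were -0.46 to 0.09 for Gzma, -0.13 to 0.69 for Klrd1 and -0.29 to 0.64 for Nkg7, and at the high dose against vehicle -0.08 to 0.83 for Gzmb and -0.11 to 0.49 for Klrk1. Over the 3 experiments they were -0.56 to 0.19 for Gzma and -0.34 to 0.02 for Prf1, and with against without anti-PD1 -0.89 to 0.08 for Gzmk. Depth limits Ifng, Gzmk and Fasl most.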

Other observations

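The granzyme genes Gzmd, Gzme, Gzmf and Gzmg, neighbours of Gzmb, had counts in part of the libraries only. Gzmf had a median of 6 counts, with 14 of 32 libraries at 3 counts or fewer, but 376 and 544 counts in vehicle libraries 1 and 4 of the DC-101 experiment, 192 in DC-101 library 1 and 572 in vehicle library 2 of the anti-PD1 experiment. Gzmd reached 313 counts and Gzmg 493, with 18 and 21 libraries at 3 counts or fewer. Vehicle libraries 1 and 4 were also the highest of the DC-101 experiment in Gzma, at 5.96 and 4.27 CPM, and vehicle library 2 was the highest of all in Gzma at 17.3 CPM. In these 3 libraries Cd3e was at 0.395, 0.989 and 1.12 CPM. Gzmc, Gzmd, Gzme, Gzmf and Gzmg belong to one gene family, and whether reads shared by its members were counted was not tested. Gzmn had at most 1 count in any library, and Gzmm had 4 to 36.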
